A study of Mus musculus with 16 samples.

Results

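Transcripts of pericytes and vascular smooth muscle cells, the cells that wrap blood vessels, were followed in the mouse thyroid. The 10 genes were picked as usual markers of these cells, with earlier results of these data known. All 10 were present among the 21640 genes of the deposited table. They are Rgs5, Pdgfrb, Cspg4, Notch3 and Kcnj8, which are typical of pericytes and of mural cells in general, and Acta2, Tagln, Cnn1, Myh11 and Des, which encode parts of the contractile and filament apparatus. RNA came from whole thyroids of 16 male wild-type C57Bl/6J mice, 1 library per mouse, and no mouse carried an engineered allele. From 8 weeks of age the mice ate either control chow (CD) or a high-fat diet with sucrose in the drinking water (HF+SD), and their thyroids were removed after 3 weeks (3W) or 6 weeks (6W). Each combination of diet and time held 4 mice, which are named below by their numbers. The comparison asked whether the transcripts of vessel-wrapping cells differed between the diets, separately at each time point.

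Pericytes sit on capillaries within the basement membrane of the endothelium, and smooth muscle cells form the contractile wall of arterioles and larger vessels. Endothelial cells recruit them by secreting PDGF-B, which acts on the receptor encoded by Pdgfrb, and instruct them through Notch ligands, which act on Notch3. The thyroid is among the most densely vascularized glands, and its follicles are each surrounded by a capillary basket. In whole tissue, fewer cells of a type and less RNA per cell cannot be told apart.

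The contractile member Acta2 belongs to a family of near-identical actins, and its counts are only as good as the separation from these relatives. The start of each coding sequence is shown to make the differences visible (GENCODE M21 transcripts, from the start codon, with capitals where a base differs from Acta2).
Acta2, smooth muscle alpha-actin: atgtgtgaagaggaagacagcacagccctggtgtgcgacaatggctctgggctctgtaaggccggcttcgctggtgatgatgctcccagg
Actg2, smooth muscle gamma-actin: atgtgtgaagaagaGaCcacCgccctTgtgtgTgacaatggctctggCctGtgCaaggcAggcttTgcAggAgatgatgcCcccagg
Acta1, skeletal muscle actin: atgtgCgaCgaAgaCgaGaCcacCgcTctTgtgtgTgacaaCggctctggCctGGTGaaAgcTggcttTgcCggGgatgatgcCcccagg
Actc1, cardiac actin: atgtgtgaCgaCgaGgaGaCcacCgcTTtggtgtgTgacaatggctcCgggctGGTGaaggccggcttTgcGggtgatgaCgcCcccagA
Over the whole coding sequence, Acta1 was identical to Acta2 at 85.4% of bases, Actg2 at 84.2% and Actc1 at 82.5%. The longest stretch without a difference was 29 bases for Acta1, 29 for Actg2 and 23 for Actc1. Acta1 counts bear on this directly, because skeletal muscle RNA was present in some thyroid libraries. In the CD mice at 6W, Acta1 took 12939 CPM (counts scaled to TMM-adjusted library sizes, where TMM is edgeR's trimmed-mean normalization) in M45, 7369 in M48, 1613 in M43 and 45.2 in M22. Acta2 took 46.8, 45.1, 47.4 and 45.9 CPM in the same mice, and so did not move with Acta1.

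Acta2 also has a known serum response factor element, the CArG box, in its proximal promoter. That stretch is shown because Acta2 is one of the contractile members. The 250 bases before its start (RefSeq, GRCm38.p6, chr19:34255374-34255623, minus strand, boxes in capitals) read as follows.
Acta2 promoter: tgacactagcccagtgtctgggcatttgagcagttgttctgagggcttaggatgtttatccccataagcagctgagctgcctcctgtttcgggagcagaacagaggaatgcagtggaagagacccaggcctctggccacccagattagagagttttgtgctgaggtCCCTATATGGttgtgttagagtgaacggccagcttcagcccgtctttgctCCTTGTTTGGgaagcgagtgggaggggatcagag
The 2 boxes start 84 and 34 bases before the gene start and each departs from the motif by 1 letter. Of 32851 mouse promoter windows of this length, 18.62% held at least 1 box with up to 1 letter off on either strand, and 2.96% held at least 2. Windows were searched for 7 of the 10 members, and 3 of these had such a box (Acta2, Cspg4 and Kcnj8). Rgs5, Notch3, Cnn1 and Des had none, so that Acta2 was the only contractile member with a box among those searched. Cspg4 and Kcnj8 were not called at either time, as given below. The promoters of Tagln, Myh11 and Pdgfrb were not searched. A match in letters describes the window and is not a measured binding site.

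Library totals ran from 30025256 to 48508653 counts, and the thyrocyte transcript Tg, the thyroid hormone precursor, was detected in every library at 63115 to 329745 CPM. A list of 36 skeletal muscle genes took 4.08% of the counts of M43, 17.2% of M45 and 12.4% of M48, but 0.121% of M22, all CD mice at 6W. The HF+SD mice at 6W had 0.148% to 0.488%, and the 3W mice 0.0170% to 0.0297%. Of all tested genes, 12% were higher on HF+SD and 9.55% lower at 6W, and 9.07% and 5.78% at 3W (adjusted p under 0.05). Of 15 endothelial genes, 14 were higher on HF+SD at 6W (median log2 fold change 1.59) and 13 at 3W (median 0.77). Of 7 adipocyte genes, 6 were lower at 6W and 5 at 3W, and the summed level of the list at 6W was 1107 to 2066 CPM on CD and 469 to 849 on HF+SD. The summed level of 8 airway epithelium genes was 29.4 to 84.8 CPM on CD and 101 to 138 on HF+SD at 3W, and it reached 898 CPM in M34 (HF+SD, 6W). The cartilage gene Col2a1 stayed at or below 0.261 CPM. Of 12 fibroblast genes, another stromal class, 0 were higher and 1 lower at 6W (median log2 fold change -0.04, 2 at an unadjusted p under 0.05), and 3 were higher and 0 lower at 3W (median 0.01, 6 at an unadjusted p under 0.05).

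Among the members, Rgs5 was the most abundant per kilobase of exon in every group except the CD group at 6W, where the mean of Des was higher. In the HF+SD mice at 6W, Rgs5 reached 154 ± 6.90 CPM per kb (SD, n = 4), Tagln 50.7 ± 3.60 and Acta2 40.5 ± 4.00, and the ranges of these 3 did not overlap. Pdgfrb, Myh11, Des, Kcnj8 and Notch3 followed at means of 7.63 to 3.72 CPM per kb, each overlapping the next in order. Cnn1 and Cspg4 were the least abundant, at 1.34 and 0.726 CPM per kb with overlapping ranges. In the CD mice at 3W the order began with Rgs5 (52.3 CPM per kb), Tagln (13.7), Acta2 (11.2) and Myh11 (9.60), where Tagln overlapped with Acta2 and Acta2 with Myh11.

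**Figure D1:**
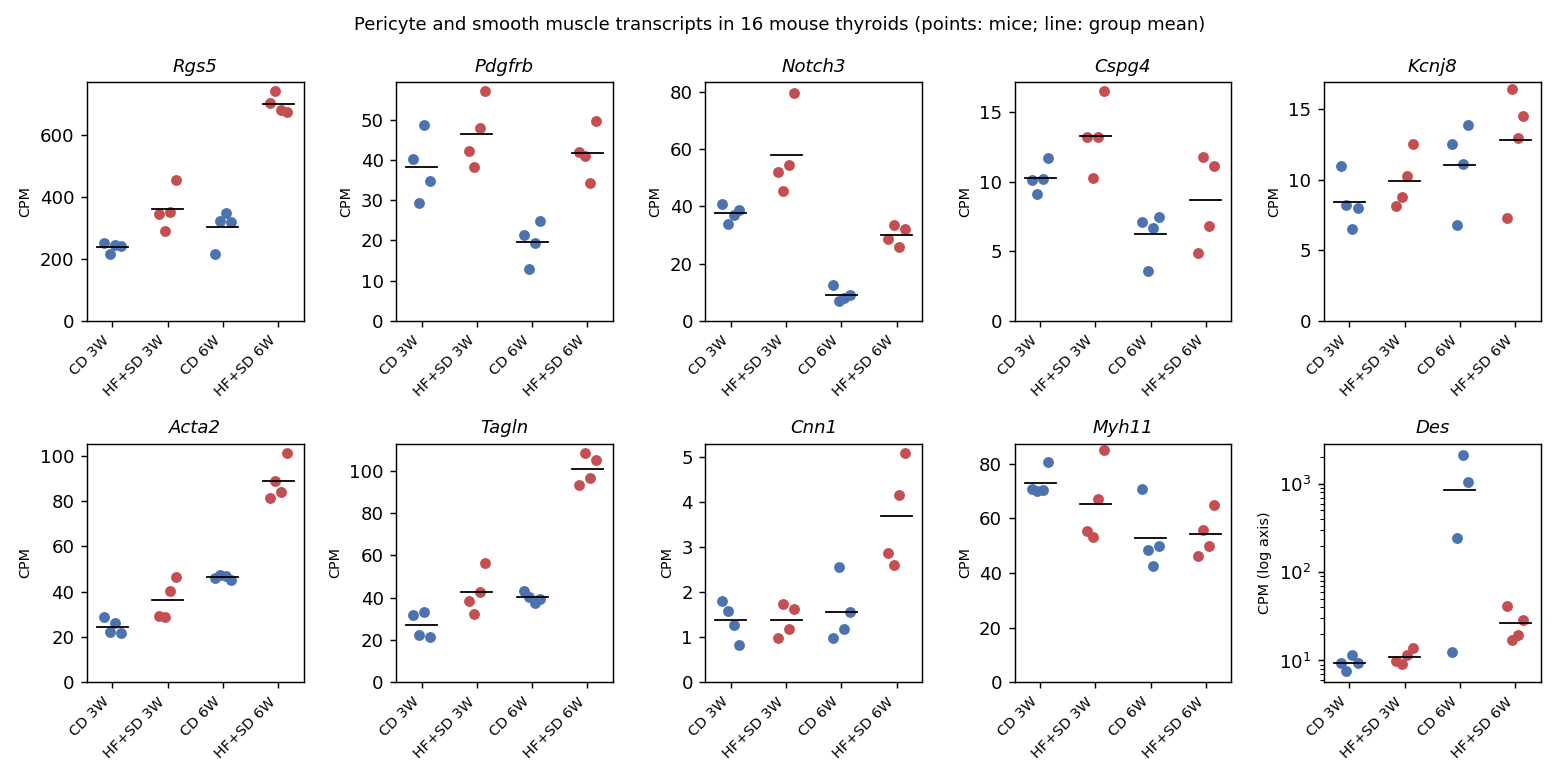
Level of each of the 10 transcripts (y axis, CPM with TMM-adjusted library sizes, log axis for Des only) in the 4 groups (x axis), with a point per mouse and a line at the group mean (n = 4). At 6W the HF+SD points of Rgs5, Pdgfrb, Notch3, Acta2, Tagln and Cnn1 lie above all CD points, those of Cspg4, Kcnj8 and Myh11 overlap with CD, and 3 CD points of Des stand far above the rest.

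After 6 weeks, 6 of the 10 transcripts were higher on HF+SD and 1, Des, was lower, against 12% of 18249 tested genes higher and 9.55% lower (21.5% in either direction, edgeR's quasi-likelihood test, adjusted p under 0.05). The 6 were Tagln, Notch3, Acta2, Rgs5, Pdgfrb and Cnn1, at 1.98 to 3.44 times the CD level. With an absolute log2 fold change above 1 required as well, 6 members remained, Des among them and Acta2 just short, against 12.6% of genes. In Tagln, Notch3, Acta2, Rgs5, Pdgfrb and Cnn1 the lowest HF+SD mouse lay above the highest CD mouse, which was so for 12.9% of all tested genes. The median log2 fold change of the 10 was 1.07, beside -0.01 over all tested genes.

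Rgs5 encodes a regulator of G protein signalling that is strongly expressed in pericytes. On CD it was found at 215, 323, 346 and 320 CPM, listing M22 first, then M43, M45, M48, and on HF+SD at 703, 742, 679 and 673 CPM, listing M5, M18, M34, M35 (the order kept below). The HF+SD mice lay close together and far above every CD mouse, among which M22 was the lowest. The log2 fold change was 1.26 (SE, standard error, 0.18, adjusted p = 0.00207).

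Pdgfrb, the receptor for PDGF-B, was measured at 21.2, 12.8, 19.4 and 24.8 CPM on CD and 41.9, 41.0, 34.4 and 49.8 on HF+SD. No HF+SD mouse came down to the CD range, whose lowest value was that of M43. Its log2 fold change was 1.15 (SE 0.19, adjusted p = 0.00360).

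Notch3 is the Notch receptor of arterial smooth muscle cells and pericytes. Its levels were 12.4, 6.96, 7.91 and 8.97 CPM on CD and 28.6, 33.7, 25.8 and 32.3 on HF+SD. The diets were separated by a gap larger than the range of the CD mice, and the log2 fold change of 1.78 (SE 0.19, adjusted p = 0.000424) was the largest increase among the 10. An antisense gene, Gm17276, overlaps 488 bases of Notch3 exons, and because strand use in counting is not stated, reads from this stretch cannot be assigned to a strand.

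Of the contractile genes, Tagln, which encodes the actin-binding protein transgelin (SM22 alpha), differed with the smallest p. It was found at 43.3, 40.4, 37.3 and 39.5 CPM on CD and 93.0, 108, 96.6 and 105 on HF+SD. Both diets gave narrow ranges, and the gap between them exceeded either. The log2 fold change was 1.37 (SE 0.12, adjusted p = 0.000199), and by p Tagln ranked 56 among the 18249 genes. Antisense transcript Gm48529 overlaps 1241 bases of its exons, with a mean of 95.6 counts per library beside 2023 for Tagln. The protein-coding gene Pcsk7, on the opposite strand, overlaps 108 bases of Tagln exons and had a mean of 1263 counts.

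Acta2, smooth muscle alpha-actin, rose from the CD levels given above (45.1 to 47.4 CPM) to 81.5, 88.8, 84.3 and 101 CPM on HF+SD. The CD mice were nearly identical, with a coefficient of variation of 2.16%, and all HF+SD mice stood well above them. Its log2 fold change was 0.99 (SE 0.11, adjusted p = 0.000703).

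Cnn1, calponin 1, is an actin- and calmodulin-binding protein of differentiated smooth muscle and was rare here, with 36 to 205 counts per library at 6W. It took 0.973, 2.55, 1.18 and 1.55 CPM on CD and 2.87, 2.61, 4.16 and 5.08 on HF+SD. The groups were separated only by the narrow gap between M43 and M18. The log2 fold change was 1.25 (SE 0.36, adjusted p = 0.0355), and it passed in 3 of the 8 fits that left out a mouse, with values of 1.08 to 1.61. For each of these 6 genes the exact two-sided permutation test gave p = 0.0286, the smallest that 4 mice against 4 allow.

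M22, with a skeletal muscle share below that of every HF+SD mouse at 6W, also lay below every HF+SD mouse for these 6 genes. Since the diets did not overlap in them, this was so for every CD mouse and adds no separate check. M22 was also the mouse with the most parathyroid RNA, at 15947 CPM summed over 4 parathyroid genes. The other CD mice at 6W had 2520 to 4542 CPM of that list, and the HF+SD mice 520 to 2423. Without M45 and M48, the CD mice with the largest shares (a choice made after seeing the data), 5 members passed and all 5 were higher, against 10.4% of all genes in either direction, and Cnn1 and Des no longer passed. When the mean log2 CPM of the muscle list entered as a covariate, the same number passed, against 10.9% of genes. Without M34, the mouse with the most airway epithelium RNA, 5 passed as well (10.4% of genes), Cnn1 and Des again being lost. The part of adipocyte, airway, parathyroid and endothelial RNA in these differences was not tested, other than by scaling to endothelial genes as described further on.

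Myh11, the smooth muscle myosin heavy chain and the most selective of the contractile markers, showed no such difference. At 6W it was measured at 70.6, 48.4, 42.7 and 49.8 CPM on CD and 46.2, 55.6, 49.7 and 64.9 on HF+SD. The highest mouse of all, M22, was a CD mouse, and the groups overlapped over nearly their whole range. The log2 fold change was 0.08 (95% interval -0.27 to 0.43, adjusted p = 0.784), so that an increase as large as that of Acta2 lies outside the interval.

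The other transcripts without a call were Cspg4 and Kcnj8. Cspg4, the NG2 proteoglycan on the pericyte surface, was found at 7.14, 3.55, 6.69 and 7.50 CPM on CD and 4.89, 11.8, 6.82 and 11.1 on HF+SD. Its log2 fold change was 0.53 (95% interval -0.08 to 1.15, adjusted p = 0.252), with 2 of the HF+SD mice above all CD mice and the others among them. Kcnj8, the pore subunit (Kir6.1) of the vascular ATP-sensitive potassium channel, was found at 12.5, 6.76, 11.1 and 13.8 CPM on CD and 7.32, 16.4, 13.0 and 14.5 on HF+SD. These values were interleaved, and the log2 fold change was 0.27 (95% interval -0.27 to 0.81, adjusted p = 0.519).

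**Figure D2:**
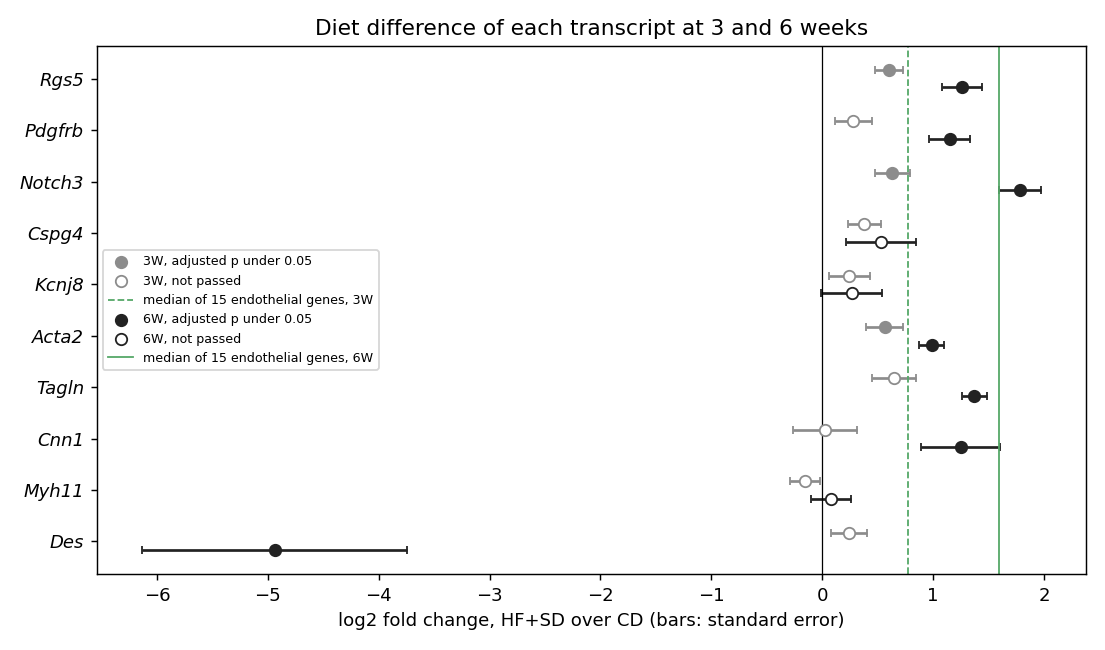
Log2 fold change of HF+SD over CD (x axis) for each of the 10 transcripts at 3W (grey) and 6W (black), with bars for the standard error and filled points for an adjusted p under 0.05. The green lines give the median of 15 endothelial genes (0.77 at 3W, dashed, and 1.59 at 6W, solid). At 6W 6 filled points lie to the right of 0, Myh11 lies at 0.08, and Des lies at -4.94 with a wide bar.

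Des encodes desmin, the intermediate filament of muscle cells and of many pericytes, and is abundant in skeletal muscle. It was measured at 12.5, 247, 2150 and 1043 CPM on CD and 41.9, 17.2, 19.3 and 28.5 on HF+SD. The CD mice spanned more than the whole range of any other member, and M22 fell below every HF+SD mouse. The fitted log2 fold change was -4.94 (SE 1.20, adjusted p = 0.0200), while the exact two-sided permutation test gave p = 0.143. All 8 libraries of 6W stood in the same order by Des as by their share of skeletal muscle counts, from M22 (12.5 CPM, 0.121%) to M45 (2150 CPM, 17.2%). When that muscle score entered the fit, Des differed by -0.03 on the log2 scale (adjusted p = 0.961), and without M45 and M48 it was -2.30 (adjusted p = 0.141). Tagln over the same libraries kept within 37.3 to 43.3 CPM on CD.

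**Figure D3:**
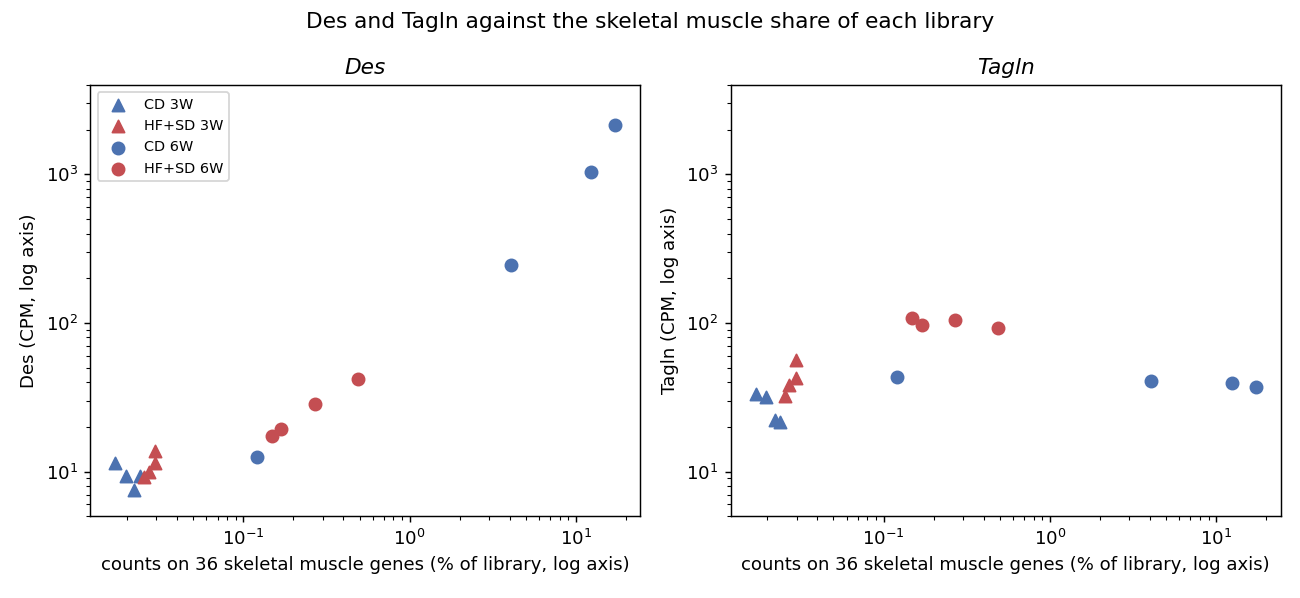
Des (left) and Tagln (right) in CPM (y axis, log) against the share of each library's counts on 36 skeletal muscle genes (x axis, percent, log), with a symbol per mouse (blue CD, red HF+SD, triangles 3W, circles 6W). Des climbs with the share from 12.5 to 2150 CPM over the libraries of 6W, whereas Tagln stays at 37.3 to 43.3 CPM in the CD mice and at 93.0 to 108 CPM in the HF+SD mice.

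After 3 weeks fewer of the transcripts passed the test. Rgs5, Notch3 and Acta2 were higher on HF+SD and none was lower, so that 3 of 10 passed, against 14.9% of 17238 tested genes in either direction (9.07% higher, 5.78% lower). Without M54, M96 or M20y, 1 of the 10 passed, which was Rgs5 each time. None was also past an absolute log2 fold change of 1, which was so for 4.66% of genes. The median of the 10 was 0.33, beside -0.01 over all genes. In all 3 the diets did not overlap, which was so for 12.6% of genes with HF+SD higher.

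Rgs5 was measured at 251, 216, 243 and 240 CPM on CD (M53, M54, M55 and M96, in this order below) and 343, 290, 351 and 453 on HF+SD (M7, M19y, M20y and M31, likewise). All HF+SD mice were above the CD mice, and M31 was the highest. The log2 fold change was 0.60 (SE 0.13, adjusted p = 0.0123), and it passed in all 8 fits without 1 mouse, at 0.47 to 0.69. Notch3 was measured at 40.7, 33.8, 36.9 and 38.8 CPM on CD and 52.1, 45.3, 54.5 and 79.8 on HF+SD. Here too M31 stood apart at the top, and the log2 fold change was 0.63 (SE 0.16, adjusted p = 0.0258), which passed in 5 of 8 fits without 1 mouse.

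Acta2 took 28.7, 22.1, 26.0 and 21.8 CPM on CD and 29.3, 28.9, 40.4 and 46.6 on HF+SD. The lower HF+SD mice touched the top of the CD range without entering it. The log2 fold change of 0.56 (SE 0.17, adjusted p = 0.0481) was close to the threshold and passed in 3 of 8 fits without 1 mouse, at 0.42 to 0.66. Tagln had the largest estimate at 3W, 0.65 (SE 0.20), but did not pass (adjusted p = 0.0531, exact two-sided permutation p = 0.0571). Its values were 31.6, 22.2, 33.3 and 21.6 CPM on CD and 38.4, 32.4, 42.6 and 56.5 on HF+SD, with M19y inside the CD range.

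The other members overlapped between the diets at 3W. Pdgfrb was measured at 40.3, 29.3, 48.8 and 34.9 CPM on CD and 42.2, 38.3, 47.9 and 57.2 on HF+SD (log2 fold change 0.28, 95% interval -0.05 to 0.61). Cspg4 took 10.1, 9.09, 10.2 and 11.7 CPM on CD and 13.2, 10.3, 13.2 and 16.5 on HF+SD (0.38, interval 0.09 to 0.67 before adjustment, adjusted p = 0.111). For both genes the highest mouse was M31, and in Cspg4 only M19y reached down to the CD mice. Kcnj8 took 11.0, 8.23, 6.54 and 8.00 CPM on CD and 8.15, 8.79, 10.3 and 12.6 on HF+SD (0.24, interval -0.11 to 0.60).

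Among the filament genes, Myh11 stood at 70.7, 70.0, 70.4 and 80.7 CPM on CD and 55.3, 53.2, 67.3 and 85.2 on HF+SD, where 3 HF+SD mice lay below all CD mice and M31 above them (log2 fold change -0.15, adjusted p = 0.488). Cnn1 took 1.81, 1.57, 1.28 and 0.831 CPM on CD and 0.986, 1.75, 1.18 and 1.63 on HF+SD, fully interleaved (0.03, adjusted p = 0.962). Des, with little muscle RNA in these libraries, took 9.27, 7.52, 11.4 and 9.35 CPM on CD and 9.86, 9.17, 11.5 and 13.7 on HF+SD (0.24, adjusted p = 0.354). M31 was the highest HF+SD mouse for 9 of the 10 members, Cnn1 being the exception, and it also had the highest summed level of endothelial genes at 3W (2500 CPM, beside 1713 to 2035 in the other HF+SD mice). Skeletal muscle shares were small at 3W but did not overlap between diets. The muscle score, the mean log2 CPM of the list, did overlap, with M96 (CD) at 1.01 beside 0.11 to 0.73 on HF+SD. Once this score entered the fit none of the 10 passed, against 10.2% of all genes, and 4 had an unadjusted p under 0.05. The estimates were then 0.57 for Acta2, 0.53 for Rgs5 and 0.52 for Notch3.

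Whether the diet difference itself changed between 3W and 6W was tested by the interaction over all 16 libraries. None of the 10 passed in edgeR's quasi-likelihood test, where 15 of 18929 genes (0.0792%) did. At an unadjusted p under 0.05 there were 6 (Pdgfrb, Rgs5, Notch3, Tagln, Cnn1 and Des), against 22.3% of all genes, and DESeq2 called 5 (Pdgfrb, Rgs5, Notch3 and Tagln higher, Des lower), where it called 9.61% of all genes. The difference between the fold changes was 1.10 for Notch3 (SE 0.26, adjusted p = 0.0602), 0.81 for Pdgfrb (adjusted p = 0.110), 0.67 for Tagln (adjusted p = 0.113) and 0.37 for Acta2 (adjusted p = 0.302). In the separate fits of each time point the 9 members other than Des had a higher estimate at 6W than at 3W, whereas in the interaction fit that of Kcnj8 was -0.04. Library names begin with a different number at each time point, and the labels do not say what it stands for. Levels, unlike differences between diets, were therefore not compared across time.

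Because Myh11 was not called at either time, each other member was also set against it within a library, a ratio that no scaling of the libraries can move (18 comparisons, chosen after seeing the data). At 6W the log2 ratio of Tagln to Myh11 was -0.37 ± 0.23 on CD and 0.91 ± 0.14 on HF+SD (SD, n = 4), and that of Acta2 was -0.16 ± 0.32 and 0.72 ± 0.08. Notch3 gave -2.55 ± 0.16 and -0.84 ± 0.16. In 5 of 9 members the ratio did not overlap between diets at 6W (Tagln, Notch3, Rgs5, Pdgfrb and Acta2), and in 5 of 9 at 3W (Rgs5, Notch3, Acta2, Tagln and Cspg4), all higher on HF+SD. The ratio to Myh11 separated in this direction for 10.6% of all tested genes at 6W and 10.7% at 3W. For each of these the exact permutation p was 0.0286 and 0.0514 after Benjamini-Hochberg adjustment over the 18, which misses 0.05.

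The direction of the diet difference depended on what the libraries were scaled to. Scaled to the 15 endothelial genes, a step that shifted the median over all genes to -1.62 at 6W and -0.77 at 3W, no member was called higher at either time. At 6W 6 were then lower, namely Pdgfrb (-0.44), Acta2 (-0.64), Cspg4 (-1.08), Kcnj8 (-1.33), Myh11 (-1.53) and Des (-6.60), while Notch3 (0.19), Tagln (-0.24), Rgs5 (-0.37) and Cnn1 (-0.42) did not pass. On this scale 90.4% of all genes were lower and 1.28% higher at 6W, so that the count of 6 is no more than that of genes in general. At 3W 5 were lower, with Myh11 at -0.95 the furthest from 0, against 72.2% of all genes. Scaled to 8 thyrocyte genes, which shifted that median to -0.67, Notch3 (1.17) and Tagln (0.71) remained higher at 6W. Myh11 (-0.54) and Des (-5.77) were lower, and Acta2 (0.31), Rgs5 (0.54), Pdgfrb (0.49) and Cnn1 (0.54) did not pass. With this scaling 4.08% of all genes were higher and 51% passed in either direction. Under TMM, 3 of the 8 thyrocyte genes were themselves higher at 6W (median log2 fold change 0.31), against 12% of all genes.

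**Figure D4:**
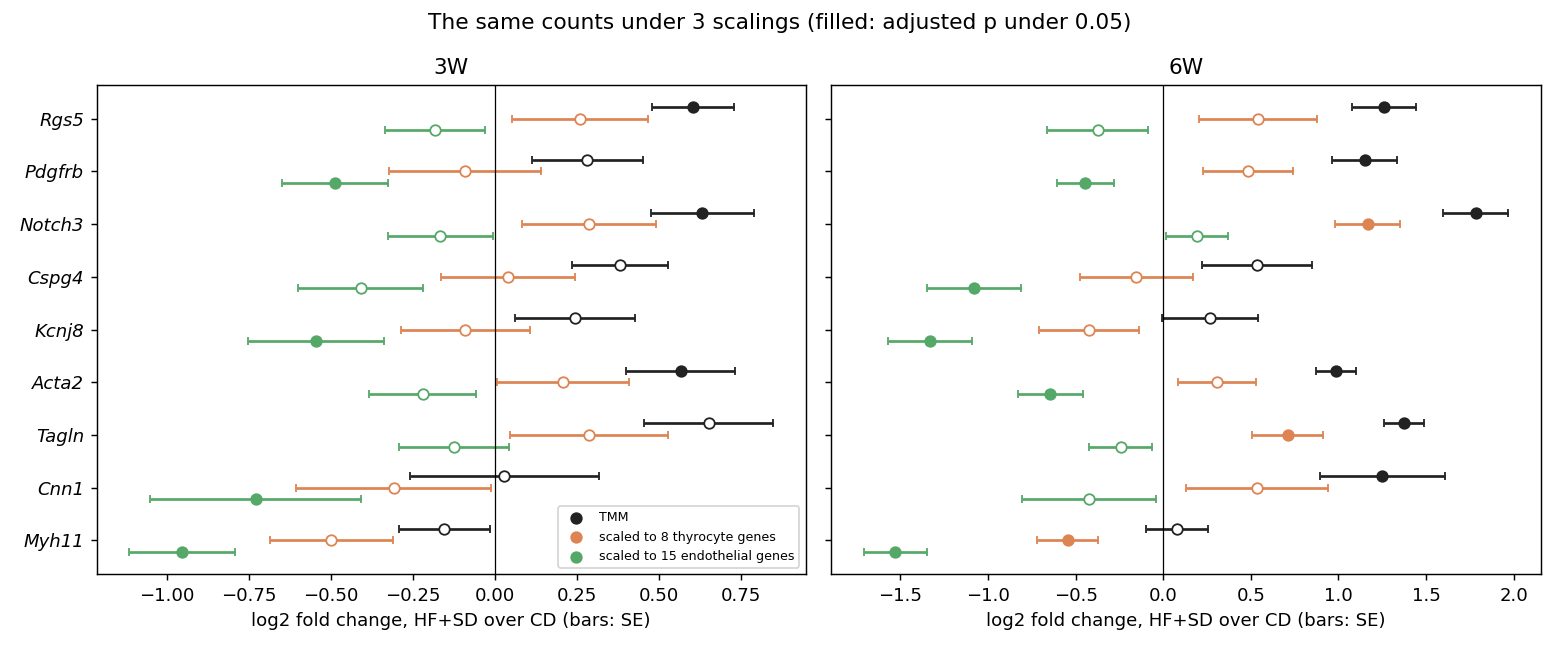
Log2 fold change of HF+SD over CD (x axis, bars for the standard error, filled points for an adjusted p under 0.05) of 9 transcripts at 3W (left) and 6W (right) from the same counts under TMM (black), scaling to 8 thyrocyte genes (orange) and scaling to 15 endothelial genes (green). Des is left out for its range. Each gene moves to the left from TMM to the endothelial scaling, at 6W from 1.78 to 0.19 for Notch3 and from 0.08 to -1.53 for Myh11.

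A longer list of 26 mural cell genes, also written with earlier results of these data known, was counted in the same way. Of the 25 tested, 11 were higher and 4 lower at 6W (median log2 fold change 0.63), against 12% and 9.55% of all genes. At 3W 5 were higher and 0 lower (median 0.34, with 10 at an unadjusted p under 0.05), against 9.07% and 5.78% of all genes. The higher ones at 6W included the pericyte transcript Higd1b (1.64, adjusted p = 0.000222), the myosin light chain Myl9 (0.95, adjusted p = 0.00106), the endothelin receptor Ednra (1.47, adjusted p = 0.00164) and the cytochrome oxidase subunit Cox4i2 (1.20, adjusted p = 0.00233). Higd1b took 3.51 to 3.95 CPM in the CD mice and 9.61 to 12.6 in the HF+SD mice. The gamma-actin Actg2 was rare, at 0.436 to 0.863 CPM on CD and 1.21 to 3.19 on HF+SD, and higher by 1.85 (adjusted p = 0.00776).

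The 4 lower genes were Tpm2, Synpo2, Pln and Anpep. Tpm2, a tropomyosin of both smooth and slow skeletal muscle, took 8523 CPM in M45, 5247 in M48, 1351 in M43 and 40.1 in M22, the same order as Des (log2 fold change -5.23, adjusted p = 0.0185). Synpo2, an actin-associated protein of muscle, did likewise, from 10.3 in M22 to 258 in M45 (-2.54, adjusted p = 0.0413). Pln, phospholamban, was rare, with 26 to 140 counts per library at 6W. It took 1.46 to 3.82 CPM on CD and 0.737 to 1.24 on HF+SD with no overlap (-1.12, adjusted p = 0.0342). On CD, muscle-poor M22 had the least Pln (1.46 CPM), and the muscle-rich mice M45 (2.43) and M48 (3.82) had the most. M22 still lay above every HF+SD mouse, though its muscle share was lower than theirs. The part of muscle RNA in the Pln difference was not tested. Anpep, the aminopeptidase CD13 of pericytes and other cells, was highest in M22, at 68.7 CPM, and without overlap between the diets as well (-1.27, adjusted p = 0.0384). M22 also had the most parathyroid RNA (15947 CPM). At 3W Anpep was highest in M53 (47.6 CPM) and lowest in M19y (9.45 CPM). These mice were also highest and lowest in parathyroid RNA at 3W (5617 and 69.5 CPM). The part of parathyroid RNA in the Anpep difference was not tested. At 3W, where muscle shares were small, Tpm2 was higher on HF+SD (0.71, adjusted p = 0.0158), as were Lmod1, a leiomodin of smooth muscle (0.82, adjusted p = 0.0224), and Myl9 (0.59, adjusted p = 0.0276).

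The direct partners of the members differed in part. Abcc9, the sulfonylurea receptor subunit that pairs with Kcnj8, was found at 43.3, 87.3, 279 and 193 CPM on CD and 69.3, 90.5, 77.8 and 77.3 on HF+SD at 6W, with the highest values in the muscle-rich libraries M45 and M48 (log2 fold change -0.87, adjusted p = 0.206). Pdgfb, the ligand of Pdgfrb, was higher on HF+SD at 6W (1.00, adjusted p = 0.0343), with 7.70 to 18.9 CPM on CD and 23.5 to 42.9 on HF+SD. The Notch ligands Jag1 (0.83, adjusted p = 0.0231) and Dll4 (0.77, adjusted p = 0.0363) were higher as well, but the diets overlapped at M22 (CD). M22 took 36.9 CPM of Jag1, beside 36.3 in M34 (HF+SD), and 7.79 CPM of Dll4, beside 7.71 in M18 (HF+SD). None of these 3 ligands passed at 3W, where their estimates were 0.45, 0.04 and 0.16.

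Of the Notch targets, Heyl and Hey1 passed at both times. Heyl, a Notch target of mural cells, took 21.0, 6.70, 11.9 and 19.3 CPM on CD and 29.1, 46.8, 34.4 and 49.3 on HF+SD at 6W (1.50, adjusted p = 0.0138). At 3W it took 31.8, 37.1, 27.5 and 21.9 CPM on CD and 61.2, 76.6, 71.0 and 77.5 on HF+SD (1.28, adjusted p = 0.000832). No mouse overlapped at either time. Hey1, which endothelial cells also express, was higher by 2.07 at 6W (adjusted p = 0.000565) and 1.03 at 3W (adjusted p = 0.00538), but Hey2 was not called at either time (0.20 at 6W, adjusted p = 0.675, and -0.58 at 3W, adjusted p = 0.270). Hes1, a target in many cell types that was named after its values were seen, was not called either (0.82 at 6W, adjusted p = 0.118, and -0.34 at 3W, adjusted p = 0.266).

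Of 20 genes for signals to mural cells, 7 were higher and 0 lower at 6W (median log2 fold change 0.26, 9 at an unadjusted p under 0.05), and 3 were higher and 0 lower at 3W (median 0.02, 5 at an unadjusted p under 0.05). The shares over all genes were 12% higher at 6W and 9.07% at 3W. Besides Hey1 and the ligands, those higher at 6W were the sphingosine-1-phosphate receptor S1pr1 (1.52, adjusted p = 0.000152), the angiopoietin receptor Tek (1.06, adjusted p = 0.00125) and Tgfb1 (1.62, adjusted p = 0.00129). S1pr1 and Tek, both largely endothelial, also passed at 3W (0.62, adjusted p = 0.0383, and 0.55, adjusted p = 0.00763). The regulators of the contractile genes were not called. Srf, the factor that binds the CArG box, was not called at 6W (-0.39, adjusted p = 0.578) or 3W (-0.56, adjusted p = 0.0576), and its coactivator Myocd, at 0.50 CPM or less in every library, was too rare to be tested.

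**Figure D5:**
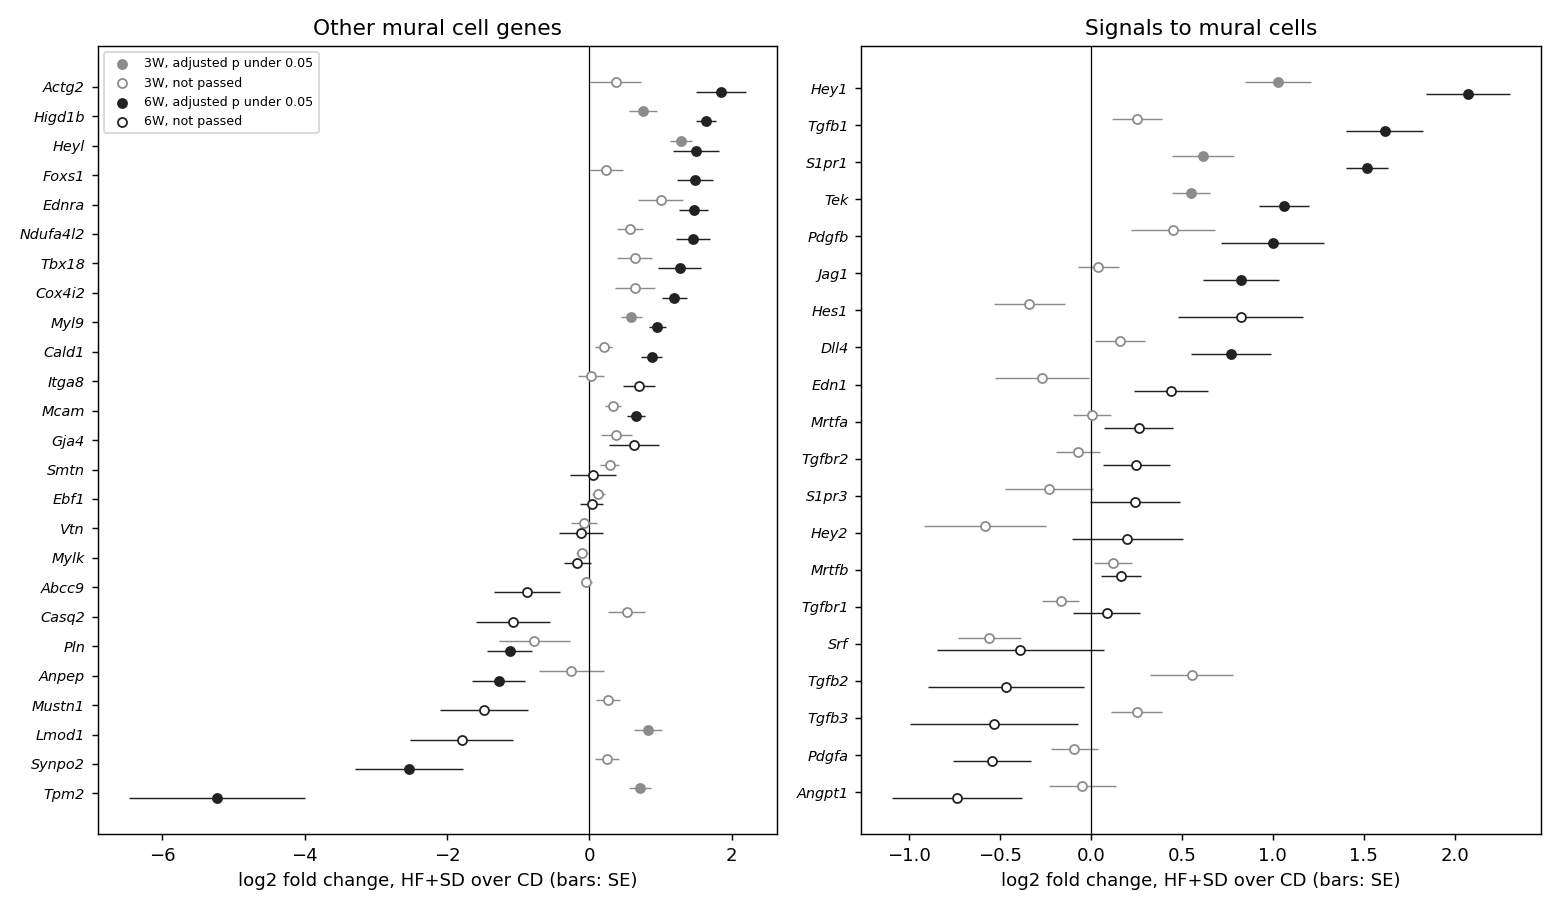
Log2 fold change of HF+SD over CD (x axis, bars for the standard error) of 25 other mural cell genes (left) and 20 genes for signals to mural cells (right) at 3W (grey) and 6W (black), ordered by the value at 6W, with filled points for an adjusted p under 0.05. Higd1b, Heyl, Myl9, Hey1, S1pr1 and Tek are filled at both times on the right of 0, and Tpm2 is filled on the right at 3W (0.71) and on the left at 6W (-5.23).

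Beyond the diet difference, the members varied in different ways among mice of the same group. Each gene's log2 CPM was centred on its mean in each of the 4 groups, and genes were compared by the root mean square difference over the 16 libraries. Tagln and Acta2 were the closest pair of members, at 0.11, and of 18928 other genes Acta2 was the nearest to Tagln. Myh11 and Notch3 were the next closest, at 0.12. Des differed from the other members by 1.32 to 1.58, and no other pair by more than 0.63. These values describe the libraries and carry no test, since all genes share the same libraries and scaling.

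The genes nearest to 3 of the members were of different kinds. Pdgfrb lay nearest to Sema6a (0.10), Igfbp7 (0.11), Col4a2 (0.11), Hnrnpa0 (0.11) and Cdh5 (0.11), of which Col4a2 encodes a basement membrane collagen and Cdh5 the endothelial cadherin. Among the nearest to Rgs5 were Lhfp (0.10), Eid1 (0.11), Rab31 (0.12) and Rplp2 (0.12). Myh11 lay nearest to Kcnk3 (0.11), Pkp4 (0.11), Sh3tc1 (0.11), Cracr2b (0.11) and Jak3 (0.11), of which Kcnk3 encodes a potassium channel known from smooth muscle. Within groups, the coefficient of variation of a member ran from 2.16% (Acta2, CD at 6W) to 44.6% (Cnn1, CD at 6W), Des at 6W aside.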

How the data were processed

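Whole-thyroid RNA of 16 mice was sequenced, and the authors deposited raw counts per gene (no normalization, the table used here) and the same counts divided by a size factor per library (a signal, not used). The submitters' processing notes name Trim Galore 0.6.7, STAR, DESeq2 1.36.0, R 4.1.0 and mm39. How strand was handled in counting, and by which filter the table came to 21640 genes, is not stated in the labels or methods read here. Identifiers were matched without version to GENCODE M21 (20841 of 21640 named), and since its build differs, no gene coordinates are printed. Exon lengths for levels per kb come from GENCODE M21.

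At each time point, HF+SD was tested against CD by edgeR 4.0.16 under R 4.3.3 (TMM, filterByExpr by group, glmQLFit and glmQLFTest, Benjamini-Hochberg over all tested genes, threshold 0.05), tested on simulated data first. CPM used TMM factors over all 16 libraries, and log2 CPM a prior count of 2. Single values had an exact permutation test (4 against 4, 70 splits). DESeq2 1.42.0 and other settings served as alternatives. Between mice of a group, the chi-square of counts was 16.4 to 961 per gene, so mice differed beyond counting error. The study states a smaller CD group at 6W without naming mice, and all 4 were used. Depth ranged from 30025256 to 48508653 counts.

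Members and gene lists were chosen with earlier results of these data known. All 10 members were named. Of the other mural and signal lists, the 4 genes with the lowest adjusted p per direction and time among those that passed were named, plus direct partners of members, and for Myh11, Rgs5 and Pdgfrb the 5 nearest genes, of which 1 is not reported here. Lists of cardiac muscle (1 of 3 tested genes higher at 6W), squamous epithelium (1 of 3 higher), parathyroid (0 of 4 called, 3 at an unadjusted p under 0.05) and thyrocyte markers (6 of 11 higher) were counted as well. Over all tested genes, 12% were higher at 6W.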

Additional observations from a re-analysis of the deposited data

Results flagged for a closer look

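Of 40 sets of 4 mice (10 transcripts in 4 groups), 1 held a mouse far from the others by Dixon's test, which chance alone gives in about 1 of 20. Myh11 in the CD mice at 3W was 80.7 CPM in M96, beside 70.0 to 70.7 in the other 3, which lay unusually close together. Without M96 the log2 fold change of Myh11 at 3W stayed below 0 and uncalled.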

How the results depend on the processing

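The count of members past the test at 6W (7) was 7 under DESeq2 size factors in edgeR, the DESeq2 Wald test, no filter, at least 10 counts per library, a fit of all 16 libraries and skeletal muscle genes left out (added later), and 5 to 7 without 1 mouse. It was 4 under thyrocyte scaling. At 3W the count (3) was 0 with the muscle score as a covariate, 0 under thyrocyte scaling, 5 (all lower) under endothelial scaling and 0 with a fold change minimum, and ran from 1 (without M54, M96 or M20y) to 4 without 1 mouse. For the interaction the count (0) was 5 with DESeq2 (9.61% of all genes) and 1 with at least 10 counts per library (0.986% of genes). Without 1 mouse it was 0 to 3, at 2 without M22 (14.1% of genes) and 3 without M43 (6.7% of genes). No paired analysis was possible because no mouse number recurs across groups.

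Signs turned as follows, and the cause was not tested other than that a scaling moves all genes alike. At 3W, thyrocyte scaling gave Pdgfrb -0.091, Kcnj8 -0.091, Cnn1 -0.31 and Des -0.13, and endothelial scaling gave Pdgfrb -0.49, Rgs5 -0.18, Cspg4 -0.41, Notch3 -0.17, Kcnj8 -0.55, Acta2 -0.22, Tagln -0.13, Cnn1 -0.73 and Des -0.54. At 6W, thyrocyte scaling gave Cspg4 -0.15, Kcnj8 -0.42 and Myh11 -0.54, and endothelial scaling gave Pdgfrb -0.44, Rgs5 -0.37, Cspg4 -1.08, Kcnj8 -1.33, Acta2 -0.64, Myh11 -1.53, Tagln -0.24 and Cnn1 -0.42. Myh11 at 6W was -0.23 with the muscle covariate and -0.11 without M45 and M48. In the interaction the muscle covariate gave Myh11 -0.10 and Des 0.53. Without 1 mouse, Cnn1 at 3W ran from -0.16 to 0.19, Myh11 at 6W from -0.035 to 0.25, and the interactions of Cspg4 from -0.093 to 0.30 and of Kcnj8 from -0.21 to 0.17.

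Tagln at 3W passed with DESeq2, with at least 10 counts per library and in the fit of all 16 libraries, and Acta2 at 3W was lost with DESeq2 size factors in edgeR and with no filter. At 6W, Tagln, Notch3, Acta2, Rgs5 and Pdgfrb passed in all 8 fits without 1 mouse, Des in 5. The biological coefficient of variation was 31.2% at 6W and 18.2% at 3W, which together with 4 mice a group limits small differences, and Cnn1 was limited by 32 to 205 counts per library.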
